A study of Mus musculus with 20 samples.

Results

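The 46 genes described here are interferon-stimulated genes, named by symbol, of the 25655 genes counted in the utricle of the mouse, the sac of the inner ear that carries the otoconia. They were chosen from the same libraries with the values of the raloxifene libraries known, so that nothing is read from the counts of calls in any comparison with these libraries, which are given as a description beside the share of all genes. RNA was sequenced from 4 groups of female C57BL/6J mice that were 8 weeks old at operation and were killed 4 weeks later, with 5 libraries in each group. The sham + v group had a sham operation and a vehicle pellet, and the OVX + v group was ovariectomized and received a vehicle pellet. The OVX + E2 group was ovariectomized and received a pellet of 50 µg estradiol for 60 days, and the OVX + RAL group was ovariectomized and received a pellet of 2.4 mg raloxifene, a selective estrogen receptor modulator, for 60 days. Every group except sham + v thus lacked ovaries. The labels do not say whether the libraries of a group came from separate animals, and p-values measure the spread between these libraries only.

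Interferons are secreted proteins that cells release when their sensors meet viral nucleic acid or when other immune signals reach them. Type I interferons bind IFNAR1 and IFNAR2, after which a complex of transcription factors with STAT2 and IRF9 binds the interferon-stimulated response element (ISRE). Type II interferon binds IFNGR1 and IFNGR2 and acts on the gamma-activated site (GAS). The genes that are switched on code for proteins that bind or degrade viral RNA (IFIT and OAS families), block entry or release of virus (IFITM3, BST2), attack vacuoles (guanylate-binding proteins and immunity-related GTPases), modify other proteins (ISG15 and its enzymes) and strengthen the pathway itself (IRF7, IRF9, STAT2).

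The ISRE, taken here as TTTC, any 2 bases and TTTC again, was searched on both strands in the 300 bases around the start of each gene, 250 before and 50 after it, in sequences from RefSeq (GRCm38.p6). Promoters were held for 33 of the 46 members, and 17 of these (51.5%) had at least 1 ISRE, against 3.99% of 27025 genes with a promoter. The GAS, spelled TTCNNNGAA, was found in 9 of the 33 (27.3%) and in 9.55% of all genes. A match is a description of the letters and not of a bound site. The stretches below are shown because they belong to members whose values the results turn on, with the bases of the ISRE in capitals and 15 bases on either side, written 5′ to 3′ in the direction of the gene. On the opposite strand the element reads GAAA, any 2 bases and GAAA.
Ifit3, chr19:34583358-34583431, + strand: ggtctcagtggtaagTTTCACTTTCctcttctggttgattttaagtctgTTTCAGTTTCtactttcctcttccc
Ifit3b, chr19:34607754-34607827, + strand: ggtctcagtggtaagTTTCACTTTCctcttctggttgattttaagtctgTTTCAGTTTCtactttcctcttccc
Ifit1, chr19:34640770-34640828, + strand: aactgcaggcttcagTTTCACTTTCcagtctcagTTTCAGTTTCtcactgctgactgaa
Isg15, chr4:156200860-156200911, - strand: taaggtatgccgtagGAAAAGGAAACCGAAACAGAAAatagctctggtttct
Bst2, chr8:71537572-71537617, - strand: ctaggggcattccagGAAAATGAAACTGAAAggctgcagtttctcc
Rsad2, chr12:26456548-26456587, - strand: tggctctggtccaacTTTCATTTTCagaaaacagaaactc
The stretches of *Ifit3* and *Ifit3b*, neighbours on chromosome 19, were identical at all 74 positions. They lay at different distances, the first ISRE 156 bases before the start of *Ifit3* and 188 before that of *Ifit3b*. *Isg15* had 3 overlapping matches between 78 and 66 bases before its start, *Bst2* had 2 overlapping ones, and *Rsad2* had a single match 120 bases before its start. No promoter was held for *Oas2*, *Dhx58*, *Zbp1*, *Usp18*, *Mx1*, *Mx2*, *Iigp1*, *Parp9*, *Parp14*, *Ifi27*, *Ifi27l2a*, *Rtp4* and *Tor3a*. *Irf7*, *Irf9* and *Cmpk2*, which are also described below, had no match in this window. *Ifitm3* had 2 matches just after its start. Of the 70 other interferon-stimulated genes listed for comparison, 54 had a promoter, and 31 of these (57.4%) had an ISRE.

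The utricle libraries held between 1123053 and 2081747 counts, lowest in the OVX + E2 group (median 1324047) and highest in the OVX + RAL group (median 1906110). Values are CPM, the count of a gene scaled to the total count of its library, and 3 counts made between 1.44 and 2.67 CPM. Since the kit reads only the 3′ ends of transcripts, CPM were not divided by length, and levels were compared between groups for the same gene. Genes of hair cells summed to between 961 and 2174 CPM, and genes of supporting cells and the otoconial matrix to between 4340 and 7665 CPM, in every library. Most members were counted at low levels. Of the 46 members, 45 had at least 10 counts over the 20 libraries, *Oas3* had none, 29 had a mean of at least 10 CPM and 6 were counted in all 20 libraries. A value of 0 was found for 345 of the 920 combinations of member and library, with 116 of them among the OVX + E2 libraries and 52 among the OVX + RAL libraries.

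The score of a library was the mean of log2(CPM + 1) over the 46 members. In the sham + v group it was 3.75, 3.25, 2.71, 2.51 and 2.28 for replicates 1 to 5. In the OVX + v group it was 2.96, 2.86, 2.04, 2.91 and 3.52 for replicates 6 to 10. In the OVX + E2 group it was 3.14, 2.25, 2.05, 2.63 and 2.47 for replicates 11 to 15. The sham + v, OVX + v and OVX + E2 groups overlapped widely, with 2.90 ± 0.60, 2.86 ± 0.53 and 2.51 ± 0.41 (mean ± SD, n = 5 each). In the OVX + RAL group the score was 3.46, 5.72, 3.92, 4.54 and 3.33 for replicates 16 to 20, or 4.19 ± 0.97. Replicates 17, 18 and 19 lay above all 15 libraries of the other groups, whereas replicates 16 and 20 lay below replicate 1 of the sham + v group. Without replicate 17 the score of the OVX + RAL group was 3.81 ± 0.55 (n = 4). With every library thinned to the count of the shallowest, the means were 2.89, 2.85, 2.51 and 4.19 in the same order of groups.

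**Figure D1:**
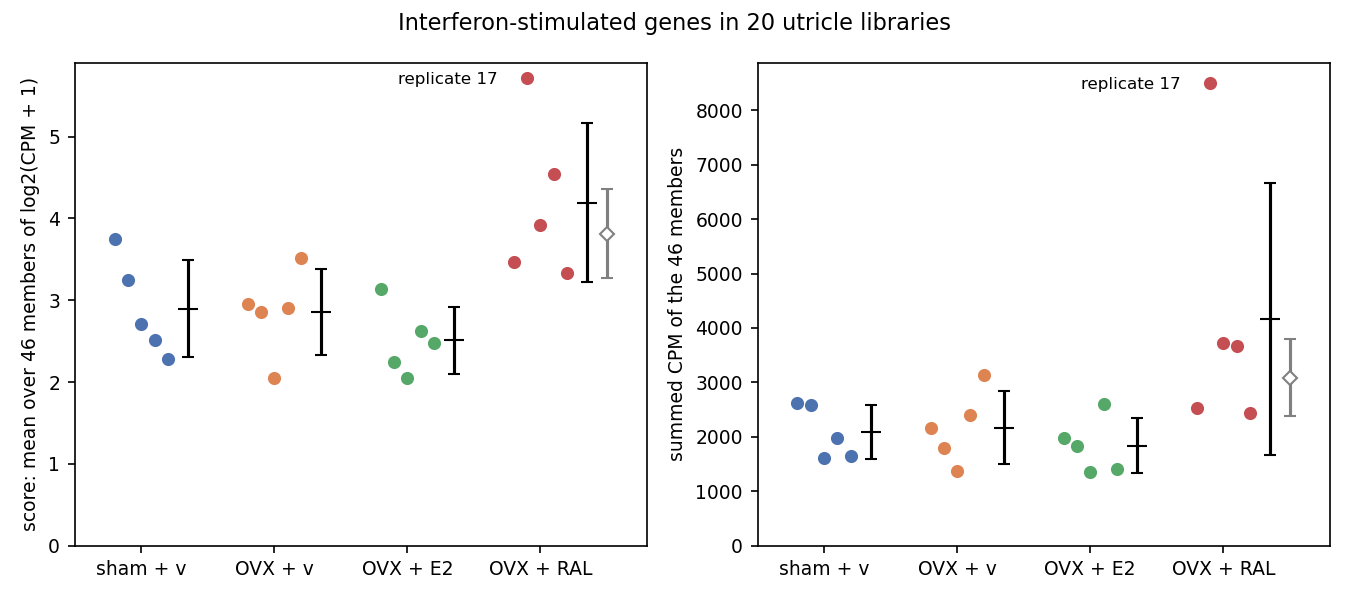
Score (mean log2(CPM + 1) over the 46 members, left) and summed CPM of the members (right) in each library of the 4 groups. Points are libraries, black bars the mean ± SD of 5 libraries, and grey diamonds the mean ± SD of the OVX + RAL group without replicate 17, which had a score of 5.72 and a sum of 8510 CPM.

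The summed CPM of the members showed replicate 17 apart from the others. It was 8510 CPM there, against 2532, 3723, 3669 and 2434 CPM in replicates 16, 18, 19 and 20. The other 15 libraries held between 1357 and 3130 CPM. The means were 2090 ± 494 CPM in the sham + v group, 2171 ± 665 CPM in the OVX + v group, 1834 ± 504 CPM in the OVX + E2 group and 4173 ± 2499 CPM in the OVX + RAL group (n = 5 each). Without replicate 17 the last was 3089 ± 702 CPM (n = 4). In replicate 17 *Ifi27l2a*, *Ifitm3*, *Ifit3* and *Ifi27* together made 4733 CPM, or 55.6% of the sum.

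The height of replicate 17 was shared by most members. Of the 45 members with at least 10 counts, 29 had their highest value of the 20 libraries in this library, compared with 3.95% of all genes. The highest value was in any OVX + RAL library for 32 members, compared with 19.3% of all genes. Among the 29 members with at least 10 CPM, the level in replicate 17 over the mean of the other 4 OVX + RAL libraries had a median of 2.41, and it was above 1 for 27. The median of this ratio was 0.872 over 9504 other genes at this level, of which 43.1% were above 1. For the 24 members with at least 10 CPM over the 15 libraries of the other groups, the median was 2.25. The ratio was highest for *Parp9* (6.69) and lowest for *Trim25* (0.0726). Replicate 17 had 1856672 counts, 10110 genes with a count and 9.31% mitochondrial counts, each within the range of the other 4 OVX + RAL libraries. The OVX + RAL group had the highest group mean of the 4 groups for 33 of the 45 members with all libraries and for 24 without replicate 17, compared with 22.3% and 23.0% of all genes.

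**Figure D2:**
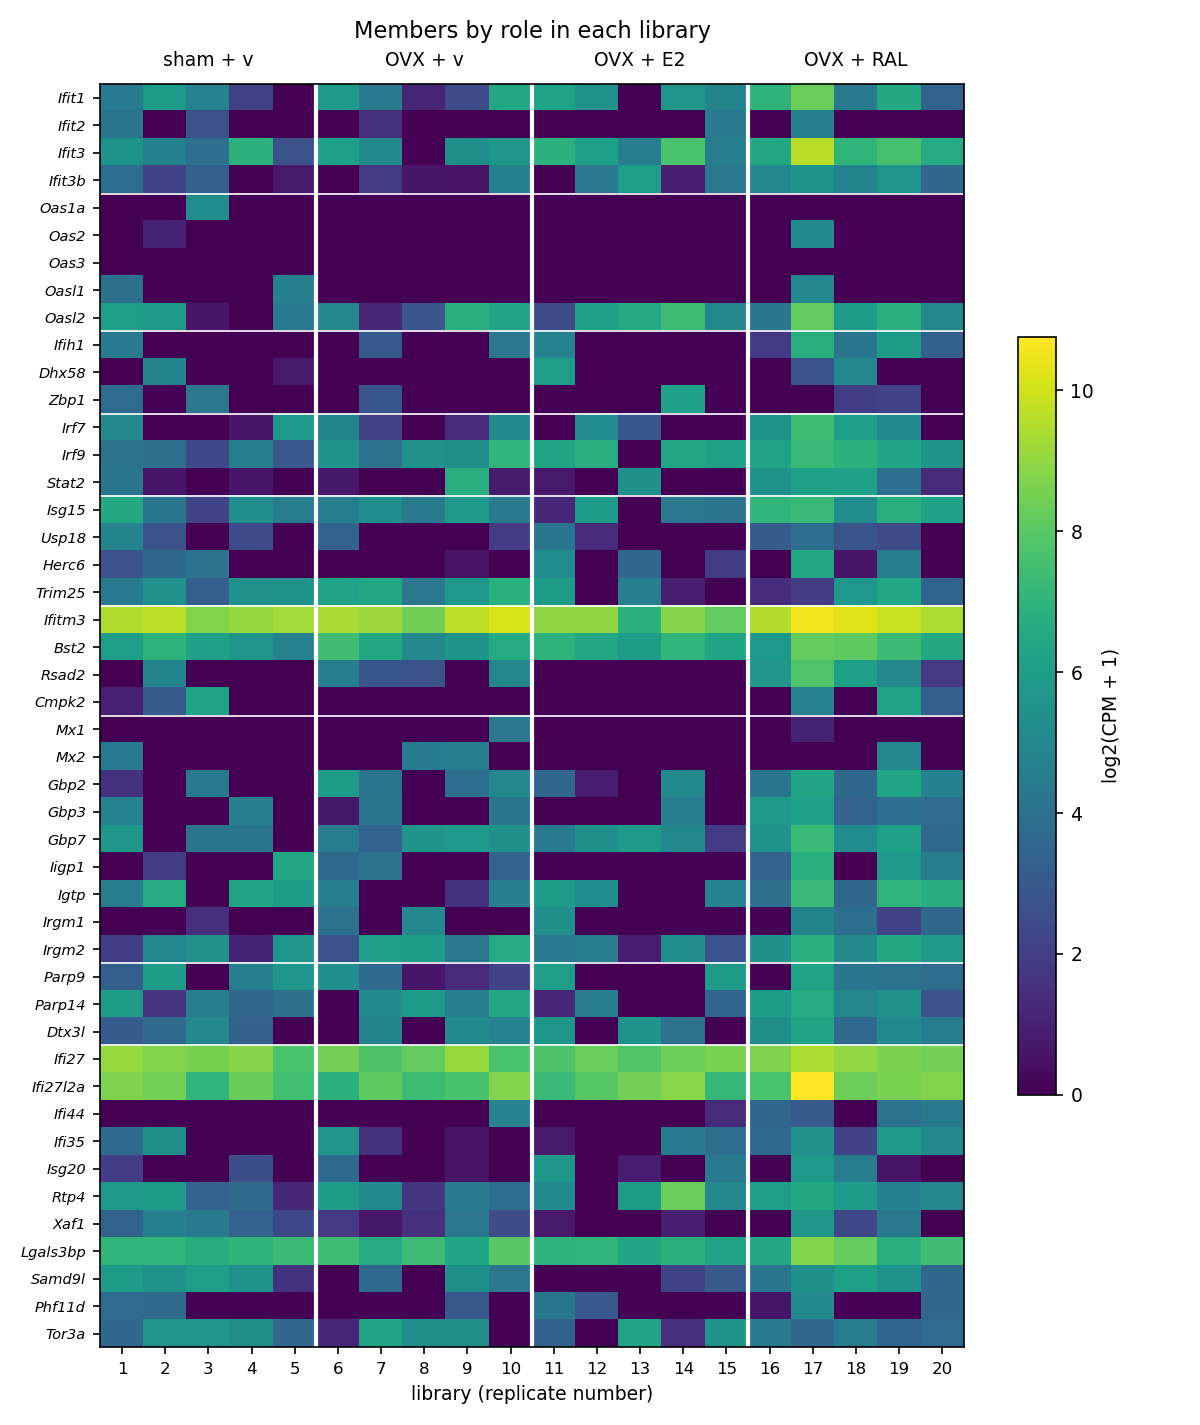
Level of each of the 46 members (rows, ordered by role) in each of the 20 libraries (columns, by replicate number), as log2(CPM + 1). White vertical lines separate the 4 groups and white horizontal lines the roles, and the column of replicate 17 is the brightest for most members while *Oas3* is at 0 throughout.

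The members also differed in how often they were detected. Taking 3 counts as detected, 26 members were detected in all 5 libraries of the OVX + RAL group, against 13, 11 and 8 in the sham + v, OVX + v and OVX + E2 groups. The share of all genes is not given for this measure, and it was not repeated after thinning. Detection of all genes also varied. Each OVX + RAL library had 10103 to 10290 genes with a count, and each OVX + v library 10004 to 10694. For sham + v the range was 8651 to 10625, and for OVX + E2 it was 7427 to 9680. The number of members detected per library was 30, 41, 34, 37 and 32 in replicates 16 to 20. In the other 15 libraries it ranged from 16 to 36. Thinned to 1123053 counts, the mean was 34 in the OVX + RAL group and 25.6, 24.4 and 20 in the sham + v, OVX + v and OVX + E2 groups, in the same order as before thinning.

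The IFIT proteins bind viral RNA ends and hinder its translation. *Ifit3* was 86.9, 769, 130, 197 and 97.0 CPM in replicates 16 to 20 of the OVX + RAL group. It was 43.8, 25.2, 14.2, 118 and 5.31 CPM in the sham + v group and 66.7, 34.5, 0, 39.6 and 51.6 CPM in the OVX + v group. The OVX + E2 libraries held 119, 65.7, 23.2, 209 and 22.4 CPM. All OVX + RAL libraries lay above all OVX + v libraries, and they overlapped with the sham + v and OVX + E2 libraries. The fold change against the other 3 groups was taken over the average of their fitted log levels, so that groups at 0 raise it. For *Ifit3* its log2 value was 2.30 (SE 0.46), and 1.30 (SE 0.65) without replicate 17.

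*Ifit1* was 129, 326, 19.97, 88.7 and 9.61 CPM in the OVX + RAL group. Its highest values elsewhere were 57.7 CPM in the sham + v group, 87.8 CPM in the OVX + v group and 74.3 CPM in the OVX + E2 group, so that 3 OVX + RAL libraries lay above and 2 within these ranges. The log2 fold change of *Ifit1* was 1.90 (SE 0.72), and 1.01 (SE 0.99) without replicate 17. *Ifit3b* was between 11.05 and 48.3 CPM in the OVX + RAL group, and its highest value, 64.9 CPM, was in the OVX + E2 group. *Ifit2* had no count in 15 libraries. The last 400 bases of *Ifit3* and *Ifit3b* share 13.3% of their stretches of 63 bases, so that a part of the reads could be counted for either.

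The OAS family makes the messenger that activates RNase L, and OAS-like proteins act on RNA sensing. *Oasl2* was the family member with the highest counts, at 17.5, 288, 61.7, 112 and 31.2 CPM in the OVX + RAL group. It was 0 to 61.9 CPM in the sham + v group, 1.25 to 106 CPM in the OVX + v group and 4.64 to 167 CPM in the OVX + E2 group, so that replicate 17 alone exceeded the other groups. *Oas2* and *Oasl1* were detected in the OVX + RAL group in replicate 17 only, at 33.4 and 31.2 CPM. *Oasl1* was also detected in 2 sham + v libraries, and *Oas1a* in 1 sham + v library only, at 36.7 CPM.

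Sensors of nucleic acid within the cell detect virus and set off the release of interferon. *Ifih1*, which codes for the RNA sensor MDA5, was 2.57, 109, 17.04, 61.4 and 9.13 CPM in the OVX + RAL group. It was not counted in 11 of the other 15 libraries and at most 26.5 CPM in the rest. *Dhx58*, which codes for LGP2, was highest in a single OVX + E2 library at 63.7 CPM, and *Zbp1*, a sensor of Z-form nucleic acid, in another at 71.2 CPM.

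The transcription factors of the pathway were higher on average in the OVX + RAL group with wide spread. *Irf7*, the factor that amplifies type I interferon, was 44.2, 170, 63.4, 33.0 and 0 CPM in the OVX + RAL group. The highest values of *Irf7* in the sham + v, OVX + v and OVX + E2 groups were 53.1, 33.5 and 35.5 CPM. The groups overlapped, with a log2 fold change of 2.32 (SE 1.12), and 1.498 (SE 1.49) without replicate 17.

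*Irf9*, a DNA-binding factor that works with STAT2, was 74.6, 155, 121, 80.3 and 46.1 CPM in the OVX + RAL group. It was 16.1, 14.7, 4.15, 23.5 and 6.63 CPM in the sham + v group, all below the OVX + RAL libraries. It was 15.1 to 136 CPM in the OVX + v group and 0 to 109 CPM in the OVX + E2 group, which overlapped with the OVX + RAL group. Of the stretches of 63 bases at the end of *Irf9*, 33.7% are shared with other genes, so that its counts may hold reads of these. *Stat2* was 1.44 to 70.5 CPM in the OVX + RAL group, and its highest value was in an OVX + v library at 105 CPM.

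*Isg15*, a small protein that is attached to other proteins like ubiquitin, was 132, 158, 37.6, 108 and 70.1 CPM in the OVX + RAL group. It was 88.2, 17.3, 3.56, 37.5 and 21.9 CPM in the sham + v group and 21.8, 36.4, 21.0, 55.5 and 19.5 CPM in the OVX + v group. The OVX + E2 libraries held 1.33, 60.4, 0, 18.7 and 16.1 CPM. Of the OVX + RAL libraries, 3 lay above all 15 others. Its fold change depended little on replicate 17, with a log2 value of 1.89 (SE 0.78) with it and 1.67 (SE 0.93) without.

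The enzymes of ISG15 did not share this pattern. *Usp18*, which removes ISG15, was 0 to 14 CPM in the OVX + RAL group and reached 26.8 CPM in the sham + v group. *Herc6*, a ligase for ISG15, was 84.0 CPM in replicate 17 and 0 to 22.6 CPM in the other OVX + RAL libraries. *Trim25*, a ubiquitin and ISG15 ligase, was 1.54, 2.69, 51.7, 85.0 and 10.1 CPM in the OVX + RAL group and up to 112 CPM in the OVX + v group, so that it was near its lowest level where most members were highest.

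Among proteins that block entry, release and replication of virus, *Ifitm3* had the highest CPM of all members. It was 742, 1533, 1239, 914 and 686 CPM in the OVX + RAL group. It was 707, 834, 422, 529 and 624 CPM in the sham + v group and 677, 584, 347, 829 and 1130 CPM in the OVX + v group. The OVX + E2 libraries held 504, 509, 119, 451 and 290 CPM, all below the OVX + RAL libraries. The log2 fold change of the OVX + RAL group against the OVX + E2 group was 1.45 (SE 0.28), and 1.26 (SE 0.32) without replicate 17. Against the other 3 groups it was 0.89 (SE 0.20), and 0.70 (SE 0.23) without replicate 17.

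*Rsad2*, which codes for viperin, was 47.3, 225, 65.8, 30.9 and 2.40 CPM in the OVX + RAL group. All 5 OVX + E2 libraries were at 0, and 1 sham + v library held 28.3 CPM. In the OVX + v group it was 23.7, 6.27, 5.67, 0 and 30.0 CPM. With 3 counts per library as the floor, *Rsad2* was at least 32.4-fold higher in the OVX + RAL group than in the OVX + E2 group, and at least 16-fold without replicate 17. *Cmpk2*, its neighbour on chromosome 12 and a nucleotide kinase, was counted in replicates 17, 19 and 20 at 26.4, 71.9 and 8.17 CPM, and its highest value was in a sham + v library at 74.1 CPM. *Bst2*, or tetherin, which holds virus at the cell surface, was 53.0, 301, 271, 159 and 91.3 CPM in the OVX + RAL group, with replicates 17 and 18 above all 15 other libraries and the other 3 within their range. The highest values of *Bst2* were 123, 174 and 136 CPM in the sham + v, OVX + v and OVX + E2 groups.

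**Figure D3:**
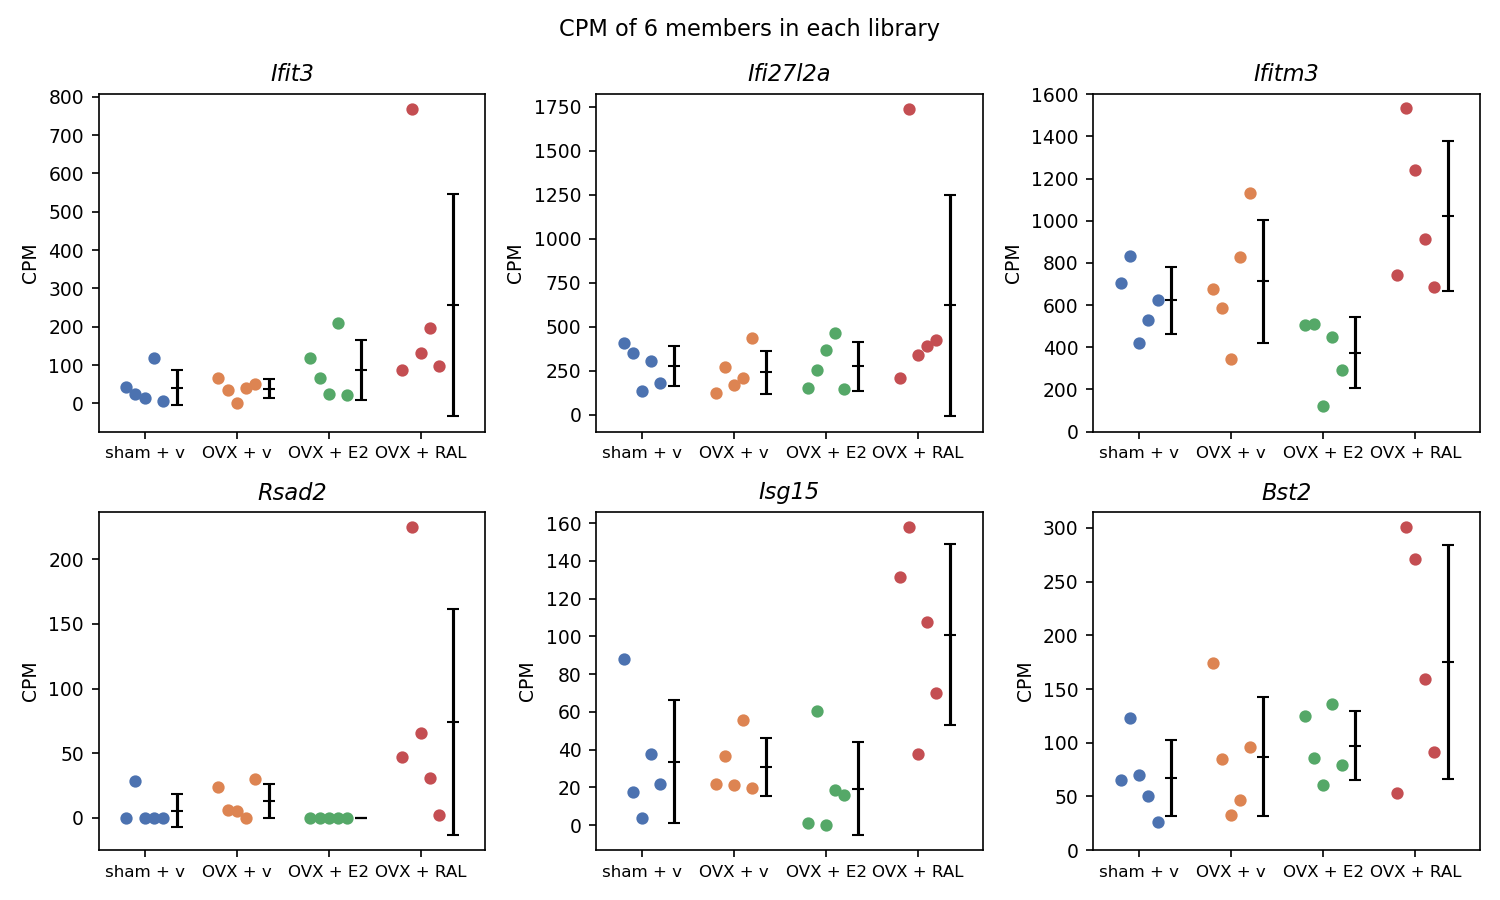
CPM of *Ifit3*, *Ifi27l2a*, *Ifitm3*, *Rsad2*, *Isg15* and *Bst2* in each library of the 4 groups, with the mean ± SD of 5 libraries in black, each panel on its own linear scale. The OVX + RAL library at 769 CPM of *Ifit3* and 1737 CPM of *Ifi27l2a* is replicate 17, and the 5 OVX + E2 libraries are at 0 for *Rsad2*.

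Of the interferon-induced GTPases, the guanylate-binding proteins and immunity-related GTPases attack the vacuoles of pathogens and the Mx proteins act on viral nucleocapsids. The median of the fitted log2 fold changes of the OVX + RAL group against the other 3 groups was 1.83 with replicate 17 included, against 0.04 over all genes. The mean CPM was higher in the OVX + RAL group than over the other 15 libraries for 8 of the 9 members, with all libraries and without replicate 17 (the share of all genes is given below). The exception was *Mx1*, at 0.215 CPM against 1.21 CPM, whose fitted fold change was above 0 (0.08) because it was at 0 in the sham + v and OVX + E2 groups. *Igtp* was 14.9, 157, 10.6, 132 and 103 CPM in the OVX + RAL group, against 0 to 96.6 CPM in the sham + v group, 0 to 24.4 CPM in the OVX + v group and 0 to 57.7 CPM in the OVX + E2 group. *Irgm2* was 41.7, 115, 32.3, 89.7 and 55.7 CPM in the OVX + RAL group and up to 96.2 CPM in the OVX + v group. In the deposited coordinates, *Igtp* and *Irgm2* overlap on the same strand over 7974 bases, and the counting could split reads between them. *Gbp7* was 158 CPM in replicate 17 and at most 66.1 CPM in the other 19 libraries. *Gbp2*, *Gbp3* and *Gbp7* were detected in all 5 OVX + RAL libraries. *Mx1* and *Mx2* had no count in 18 and 16 libraries.

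The ADP-ribosylation genes *Parp9*, *Parp14* and *Dtx3l*, which lie side by side on chromosome 16, had their highest values in replicate 17 at 75.4, 101 and 80.3 CPM. In the other 19 libraries *Parp9* reached 62.4 CPM, *Parp14* 83.6 CPM and *Dtx3l* 51.1 CPM. *Parp9* and *Dtx3l* overlap by 682 bases on opposite strands.

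Of the remaining members, *Ifi27l2a*, which codes for a small mitochondrial membrane protein, was 210, 1737, 337, 392 and 423 CPM in the OVX + RAL group. It was 408, 351, 135, 304 and 182 CPM in the sham + v group and 121, 271, 168, 205 and 433 CPM in the OVX + v group. The OVX + E2 libraries held 150, 251, 366, 461 and 144 CPM. Replicate 17 stood alone, and the other 4 OVX + RAL libraries lay within the range of the other groups. The log2 fold change against the other 3 groups was 1.24 (SE 0.26), and 0.37 (SE 0.33) without replicate 17.

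Its neighbour *Ifi27* was less spread, at 413, 694, 517, 396 and 366 CPM in the OVX + RAL group and 207 to 542 CPM in the other 15 libraries. *Lgals3bp*, a secreted galectin-binding glycoprotein, was 85.9, 418, 295, 110 and 173 CPM in the OVX + RAL group, against 104 to 159 CPM in the sham + v group, 82.2 to 256 CPM in the OVX + v group and 77.2 to 129 CPM in the OVX + E2 group. *Rtp4*, a chaperone of receptors, was 63.8, 92.1, 61.7, 25.7 and 28.8 CPM in the OVX + RAL group and 329 CPM in replicate 14 of the OVX + E2 group, its highest value. *Samd9l* was 11.5 to 69.3 CPM in the OVX + RAL group, above the 0 to 7.01 CPM of the OVX + E2 group but within the 1.99 to 65.2 CPM of the sham + v group at all but its highest value. *Tor3a* was 9.97 to 21.7 CPM in the OVX + RAL group and up to 76.2 CPM elsewhere.

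The genes were chosen with the OVX + RAL libraries known, so that the counts of this comparison and of those with each single group are a description, and no result is read from them. The fit of 20 libraries with edgeR called 5 of 45 members higher at an adjusted p under 0.05, *Ifit3*, *Ifi27l2a*, *Rsad2*, *Ifitm3* and *Cmpk2*, where 2.18% of the 14870 genes tested were called higher. Of the 324 genes called higher, 217 were counted in 1 library only, so that a call in this fit can rest on a single library. With any 1 of the 15 other libraries left out, 12 to 14 genes were called higher (0.0810% to 0.0948% of all genes), and *Ifit3*, *Ifi27l2a*, *Rsad2* and *Ifitm3* were among them each time. Without replicate 17 no member was called, against 1.37% of all genes called higher, and 6 of 44 members were higher at an unadjusted p under 0.05 (6.54% of all genes). DESeq2 and limma called no member with all libraries. Fold changes were above 0 for 41 of 45 members (52.0% of all genes), with a median of 1.76 against 0.04 over all genes. By mean CPM 40 members were higher (43.9% of all genes), all but *Oas1a*, *Zbp1*, *Trim25*, *Tor3a* and *Mx1*. Without replicate 17 they were above 0 for 36 of 44 members (50.3% of all genes), with a median of 0.96 against 0.01, and 32 were higher by mean CPM (42.8% of all genes). No member had all 5 OVX + RAL libraries above all 15 others, which 0.00672% of genes did.

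Against the OVX + v group alone, *Ifit3* and *Ifi27l2a* were called higher of 44 members, with 0.0214% of all genes called. At an unadjusted p under 0.05, 15 members were higher, with 5.98% of all genes. Without replicate 17 these counts were 0 and 5 of 41 members, with 0.0144% and 5.03% of all genes. The median of the members was 1.35, and 0.73 without replicate 17. All OVX + RAL libraries lay above all OVX + v libraries for *Ifit3* only, and for 0.264% of all genes.

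Against the sham + v group, *Ifit3* was called of 44 members (0.0504% of all genes called higher), and 12 members were higher at an unadjusted p under 0.05 (7.74%). Without replicate 17 these counts were 0 and 3 of 43 members (0.0219% and 6.67% of all genes). The median was 1.27, and 0.68 without replicate 17. The libraries did not overlap for *Irf9* only (0.382% of all genes).

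Against the OVX + E2 group, *Rsad2* and *Ifitm3* were called of 43 members (0.0654% of all genes called higher), and 12 were higher at an unadjusted p under 0.05 (9.10%). Without replicate 17 none of 41 members was called (0.0516% of all genes), and 5 had an unadjusted p under 0.05, all of them higher, where 9.17% of all genes had one in either direction and 950 of the 13564 genes were higher. The median was 1.45, and 0.65 without replicate 17. The libraries did not overlap for *Ifitm3*, *Rsad2* and *Samd9l*, as for 0.669% of all genes. These 3 comparisons share the OVX + RAL libraries, by whose values the members were chosen.

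**Figure D4:**
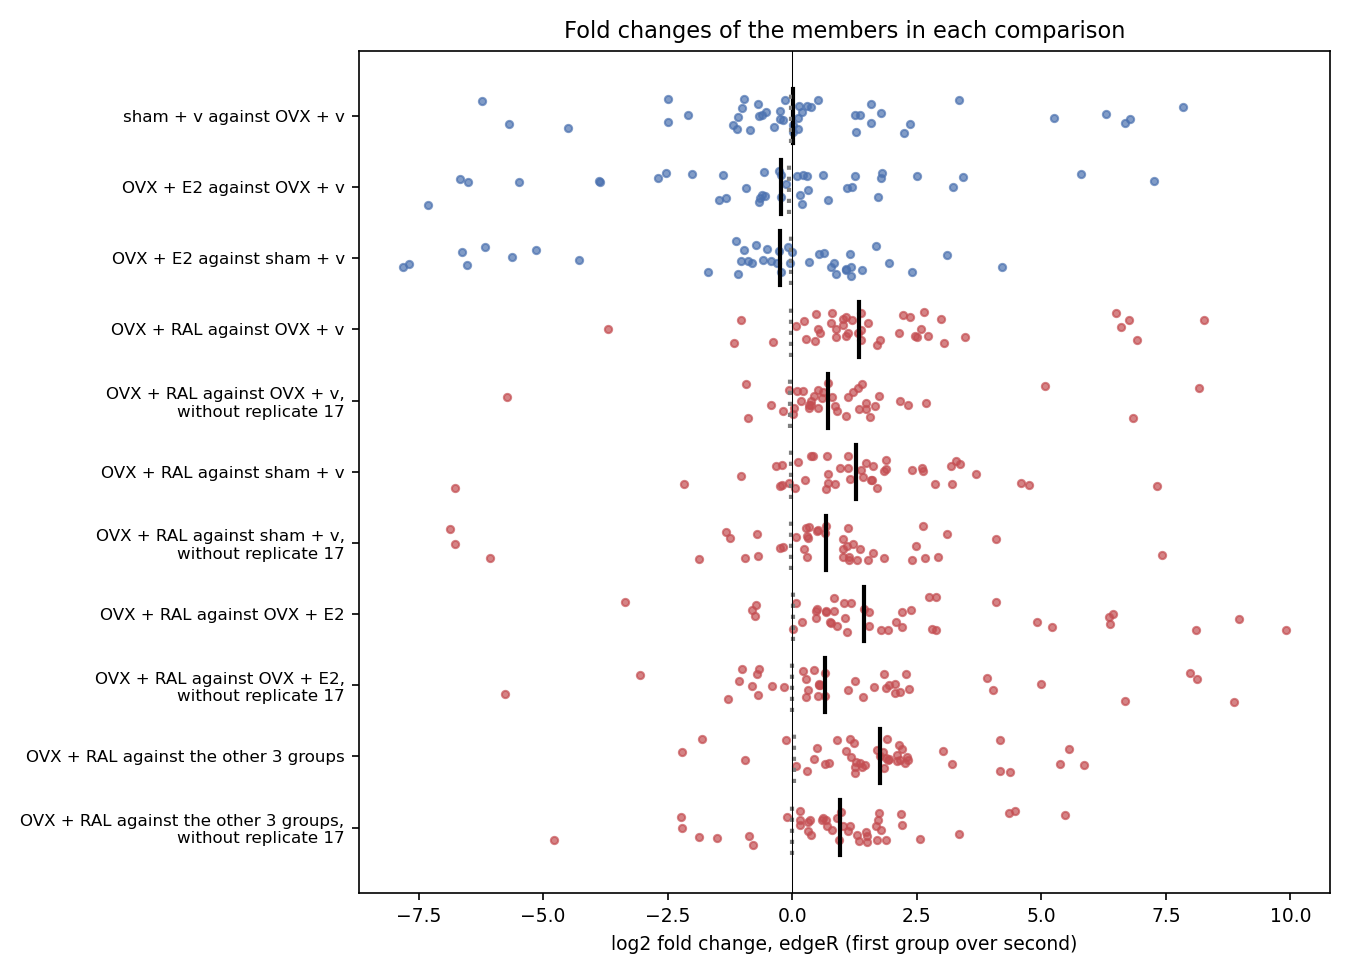
Log2 fold changes of the members in each comparison, the first group over the second, as fitted by edgeR, with raloxifene comparisons also without replicate 17. Points are members, black bars their medians (1.76 and 0.96 in the lowest pair of rows) and dotted grey bars the medians of all genes; values beyond about 5 belong to members at or near 0 in a group and depend on the fit.

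The members did not differ by a call between the groups without raloxifene. The comparisons of the sham + v and OVX + E2 groups with the OVX + v group share the OVX + v libraries with the comparison above. For sham + v against OVX + v, edgeR called 0 of 44 members at an adjusted p under 0.05 (0.0145% of all genes), and 6 had an unadjusted p under 0.05 (13.6%, against 12.5% of all genes). DESeq2 and limma called 0 as well. The median was 0.02. The smallest p was that of *Cmpk2*, which was 0 in the OVX + v group and at least 9.13-fold higher in the sham + v group, with an adjusted p of 0.363 (quasi-likelihood test in edgeR, Benjamini-Hochberg adjustment). This rested on replicate 3 of the sham + v group at 74.1 CPM, without which the bound was 1.15-fold and the adjusted p was 0.519 (edgeR). *Irf9* was lower in the sham + v group than in the OVX + v group on average, with a log2 fold change of -2.10 (SE 1.19), and did not pass the test (adjusted p = 0.571, edgeR).

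For OVX + E2 against OVX + v, edgeR called 0 of 41 members (0.0584% of all genes), and 6 had an unadjusted p under 0.05 (14.6%, against 13.9% of all genes). DESeq2 and limma called 0. The median was -0.22. *Ifitm3* had the smallest p, at 375 ± 168 CPM in the OVX + E2 group and 713 ± 291 CPM in the OVX + v group (n = 5 each). Its log2 fold change was -0.93 (SE 0.29) and did not pass the test (adjusted p = 0.351, edgeR).

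For OVX + E2 against sham + v, edgeR called 0 of 42 members (0.0222% of all genes), and DESeq2 and limma called 0. At an unadjusted p under 0.05, 7 members were lower in the OVX + E2 group and none higher (16.7%), against 14.2% of all genes in either direction and 8.58% lower. These were *Ifitm3* and 6 members without a count in the OVX + E2 group, *Oas1a*, *Oasl1*, *Rsad2*, *Cmpk2*, *Mx2* and *Iigp1*, of which *Oas1a*, *Rsad2* and *Mx2* were counted in 1 sham + v library each. The OVX + E2 libraries were the shallowest. *Ifitm3* had a log2 fold change of -0.73 (SE 0.32; adjusted p = 0.347, edgeR). *Xaf1*, which binds the apoptosis inhibitor XIAP, was 9.74, 25.2, 20.2, 9.51 and 3.98 CPM in the sham + v group and at most 0.89 CPM in the OVX + E2 group, and was the member without overlap between these groups, as 0.459% of all genes (adjusted p = 0.693, edgeR). The median was -0.24.

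The interferons themselves were not counted. None of the 21 interferon genes listed, with *Ifnb1*, *Ifng*, *Ifnk* and *Ifne* among them, had a count in any of the 20 libraries, where 3 counts would have made at most 2.67 CPM. The 6 receptor genes were tested and none was called in the OVX + RAL group against the other 3 groups, with fold changes below 0 for all 6 and a median of -0.91. Over all genes 52.0% were above 0, with a median of 0.04. *Ifnar2* was 47.8, 94.2, 113, 47.7 and 9.13 CPM in the OVX + RAL group and 0.89 to 205 CPM in the others. *Ifnar1* was counted in 2 OVX + RAL libraries, at 0.48 and 1.57 CPM, and was 0 to 54.4 CPM in the other 15. *Ifngr1* was 6.46 to 68.7 CPM and 0 to 137 CPM. *Ifngr2* was counted in 2 OVX + RAL libraries, the higher at 12.4 CPM in replicate 17.

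Of 14 kinases, STATs and IRFs that are not members, none was called in this comparison, and the median fold change was -0.05. *Irf1* was 0 to 163 CPM in the OVX + RAL group and 0 to 145 CPM in the other 15 libraries. *Irf3* was 4.72 to 44.7 CPM in the OVX + RAL group and 0 to 81.3 CPM in the others, so that the ranges of both genes overlapped. Of 17 sensors and adaptors that are not members, 14 were tested, with 11 fold changes above 0 (52.0% of all genes) and a median of 0.63. The single call among them, *Ifi204*, was counted in replicate 20 only, at 35.1 CPM.

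Of 70 other interferon-stimulated genes, 60 were tested, with 46 fold changes above 0 (52.0% of all genes), a median of 1.27 and 5 calls higher (2.18% of all genes). With any 1 of the 15 libraries of the other groups left out, the count of these calls was 0. Without replicate 17 the median was 0.52, with 43 above 0 (50.3% of all genes). Of the called genes, *Ifi211*, *Ifi213* and *Phf11a* were each counted in a single OVX + RAL library, *Tgtp2* was 104 and 72.9 CPM in replicates 17 and 19 and up to 64.8 CPM in the OVX + v group, and *Slfn9* was counted in 4 OVX + RAL and 3 OVX + v libraries. The chemokine *Cxcl10* was 22.1 CPM in replicate 17 and 6.82 CPM in replicate 19, and otherwise counted only in a sham + v library at 4.15 CPM. Of these 60 genes, 9 had their highest value in replicate 17 (3.95% of all genes) and 23 in any OVX + RAL library (19.3% of all genes). Among the 45 members these counts were 29 and 32, so that the height of replicate 17 was less common among the other interferon-stimulated genes. Of 16 antigen presentation genes under interferon control, 12 had fold changes above 0 (52.0% of all genes), none was called and their median was 0.38.

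Markers of immune cells were measured beside the members. The 12 macrophage markers summed to 468 CPM in replicate 17, 222 to 401 CPM in the other OVX + RAL libraries and 87.8 to 549 CPM in the others, with the highest value in replicate 1 of the sham + v group. Of these 12, 11 had fold changes above 0 in the OVX + RAL group against the other 3 groups, with a median of 0.85. This is with replicate 17 included, and over all genes 52.0% were above 0 with a median of 0.04. *Ptprc*, the pan-leukocyte marker, was counted in replicates 17, 18 and 19 only, at 43.1, 16.5 and 16.3 CPM. It was called higher (adjusted p = 0.0371, edgeR) and also without replicate 17 (adjusted p = 0.047, edgeR). The same adjusted p without replicate 17 was that of *Ifi204*, *Ifi211*, *Ifi213* and *Phf11a*, each counted in 1 library. With any 1 of the 15 other libraries left out, *Ptprc* was not called (adjusted p between 0.0655 and 0.0716, edgeR), and neither were *Cox6a2* and *Klrb1c*. The 7 genes listed for plasmacytoid dendritic cells, with the member *Bst2* among them and *Klk1* at 0 throughout, summed to 402 to 765 CPM in the OVX + RAL group and 344 to 772 CPM in the others. Whether these genes mark this cell type alone in the utricle was not tested. Of this list *Cox6a2* was called (adjusted p = 0.0371, edgeR). *Cox6a2* was counted in replicates 16 and 17 at 26.2 and 92.1 CPM and in 2 OVX + v libraries at up to 42.4 CPM, and it was not called without replicate 17 (adjusted p = 0.333, edgeR). The 12 lymphocyte markers summed to at most 72.1 CPM, with *Cd3e*, *Cd3g*, *Cd8a*, *Ms4a1* and *Trbc2* among those at 0 throughout, and *Klrb1c* was called from 1 library. The 9 neutrophil markers summed to at most 203 CPM, in an OVX + v library, and their call count was 0. The part of leukocytes in the levels of the members was not tested, and in whole utricles more cells of a type and more RNA per cell cannot be told apart.

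The members were compared with each other in the 15 libraries without raloxifene. For the 24 members with a mean of at least 10 CPM in these libraries, the Pearson correlation of the log2(CPM + 1) of each with the score of the other members had a median of 0.22, and 21 were above 0. Over 9497 other genes at this level the correlation with the score had a median of 0.08. With each group centred on its mean the medians were 0.22 and 0.05. *Ifih1*, *Rsad2*, *Gbp3*, *Iigp1* and *Ifi35* reached 10 CPM only with the OVX + RAL libraries counted in, and with them the median of the 29 members was 0.26. These correlations are a description over 15 libraries that share depth and preparation. Among the 24 members the highest values were 0.69 for *Ifitm3*, 0.57 for *Ifit1* and 0.46 for *Samd9l*, and the lowest was -0.33 for *Tor3a*. Of the members added by the wider filter, *Ifih1* had 0.67. The genes outside the lists with the highest correlation were *Cutal* (0.84), *Nat8f5* (0.80), *Zfp207* (0.79), *Man2b1* (0.78), *Mthfs* (0.76), *Mapk13* (0.75), *Zfp212* (0.74) and *Fibin* (0.74), of which *Cutal* reached 10 CPM only with the OVX + RAL libraries counted in. Among other interferon-stimulated genes it was highest for *Rnf213* (0.66).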

How the data were processed

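Utricle RNA of 4 groups of 5 libraries was analysed, with groups taken from the labels and replicates named by their library numbers 1 to 20. The authors made the libraries from 1 ng of total RNA with QuantSeq 3′ mRNA-Seq FWD, sequenced them for 75 cycles, cut 12 nucleotides from the read starts, dropped reads shorter than 20 nucleotides, and mapped to GRCm39.105 and counted in CLC Genomics Workbench. The version and the treatment of multi-mapping reads are not given in the sources used here. The deposited counts are raw, not normalized. The deposited CPM, TPM and RPKM columns and the authors' comparisons (log2 fold changes and p-values) were not used, and 0 columns belonged to other samples.

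CPM was computed from the total count of each library. Groups were tested in edgeR 4.0.16 with its quasi-likelihood method (glmQLFit and glmQLFTest) in R 4.3.3, over all genes with at least 10 counts in the fitted libraries, with the total as library size and p-values adjusted by the Benjamini-Hochberg method (threshold 0.05). The OVX + RAL group against the other 3 was fitted on 20 libraries, other pairs on 10. SE is the log2 fold change over the square root of F. A fold against a group at 0 is a lower bound at 3 counts per library, which covers counting error only. Figures and tables were made with Python 3.11.15. The alternatives were TMM, DESeq2 1.42.0, no filter, filterByExpr, limma 3.58.1 with pseudocounts of 1 and 0.1, robust glmQLFit, 1 fit of all groups, other scores, and each library left out. Thinning, lists without replicate 17 and the 10 CPM filter over the 15 libraries without raloxifene were chosen after seeing the data. The pairwise fits were tested on simulated counts with known changes, for OVX + E2 against sham + v only. The fit of 20 libraries was not simulated.

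The members and lists were chosen with earlier results of these data known. Every member could be named. Values per library were due for the 14 members with the highest mean CPM and *Ifit1*, *Ifit3*, *Ifi27l2a* and *Irf7*, and for *Ifnar1*, *Ifnar2*, *Ifngr1*, *Ifngr2*, *Ifnb1*, *Irf1*, *Irf3*, *Cxcl10* and list genes past the threshold. Another gene of this rule is not reported here. The 8 genes outside the lists with the highest correlation with the score were named.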

Additional observations from a re-analysis of the deposited data

Results flagged for a closer look

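A library was marked where the gap between the highest or lowest value of a group of 5 and its nearest neighbour was larger, as a share of the range of the group, than the critical value of Dixon's test. This was examined for the score, the sums and 15 members in 84 sets of 5 values, and 7 were marked, where chance marks about 1 in 20, or 4.2. In the OVX + RAL group, replicate 17 was apart in the summed CPM of the members (8510 CPM), in *Ifi27l2a* (1737 CPM) and in *Ifit3* (769 CPM). In the OVX + v group, replicate 10 was apart in *Irf9* (136 CPM). In the OVX + E2 group, replicate 14 was apart in *Rtp4* (329 CPM), replicate 12 in *Irf7* (35.5 CPM) and replicate 11 in the summed macrophage markers (436 CPM). The cause of these values was not tested.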

How the results depend on the processing

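No paired analysis was possible because the labels number the libraries 1 to 20 and the groups share no replicate number. The count of members called between the sham + v, OVX + v and OVX + E2 groups was 0 under every alternative and with each library left out. In the OVX + RAL group the counts depended on the setting. Against the other 3 groups 5 members were called, and 0 with DESeq2, filterByExpr and both forms of limma, with 0 to 5 when 1 library was left out. Over all genes, the 324 called higher in this comparison became 12 to 14 with any 1 library of the other groups left out and 193 to 248 with 1 OVX + RAL library left out, 9 with DESeq2 and 0 with filterByExpr and both forms of limma. Against the OVX + v group 2 were called, and 0 with DESeq2, filterByExpr, limma at a pseudocount of 0.1, robust glmQLFit and 1 fit of all groups, 1 with limma at a pseudocount of 1, and 0 to 2 with 1 library left out. Against the sham + v group 1 was called, and 0 with filterByExpr, limma at 0.1 and 1 fit of all groups, and 0 to 2 with 1 library left out. Against the OVX + E2 group 2 were called, and 0 with filterByExpr, 1 with either limma, 3 with DESeq2, and 0 to 3 with 1 library left out. In all 4 the count was 0 without replicate 17. filterByExpr tests fewer genes, and the cause of the other changes was not tested. The score difference of the OVX + RAL group was 1.44 against the other 3 groups (0.66 pooled SD), 2.12 with a pseudocount of 0.1 and 1.06 to 1.65 with 1 library left out. Against the OVX + E2 group it was 1.69, 2.62 with a pseudocount of 0.1 and 1.30 to 1.90 with 1 library left out. Against the OVX + v group it was 0.95 to 1.55 and against the sham + v group 0.91 to 1.51, the lowest in each case without replicate 17. The difference of sham + v from OVX + v changed sign with 1 library left out, from -0.17 to 0.21. The score of the OVX + E2 group differed by -0.55 to -0.18 from the OVX + v group and by -0.55 to -0.18 from the sham + v group. Of the fold changes of single members recomputed with TMM, DESeq2 or 1 library left out, 403 moved by less than 1 SE (for *Ifitm3* in OVX + E2 against sham + v, kept their direction and their side of the threshold) and 5 did not. A call can be lost with a smaller move, as for *Ifitm3* and *Cmpk2* without replicate 17. The 5 were *Ifit3*, *Ifi27l2a*, *Ifit1* and *Oasl2* without replicate 17, all lower, and *Rsad2* without replicate 2 of the sham + v group, at 7.46. Depth limits the members under 10 CPM, where 3 counts make up to 2.67 CPM.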
